A study of Homo sapiens with 3 samples.

Results

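The NF-kB pathway turns signals from cytokine and Toll-like receptors into transcription. Dimers of Rel proteins are held in the cytoplasm by IkB proteins until the IKK complex phosphorylates the IkB and marks it for destruction, and the freed dimers then bind kappaB sites in target genes. Many of those targets are themselves parts of the pathway, such as IkB proteins, Rel subunits and the ubiquitin-editing enzyme A20, so the transcript levels of the machinery are both an input to signalling and a readout of it.

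The 40 genes described here are components of the NF-kB pathway and its feedback inhibitors, chosen by gene symbol as known parts of the pathway, out of 58735 genes in the count data. They were chosen with earlier results of these data known. They fall into 7 roles: Rel subunits, IkB proteins, IKK kinases with their regulators, the TAK1 complex, a receptor with its adaptors, ubiquitin ligases, and ubiquitin-editing inhibitors. All 40 were present in the data and had a mean of at least 1 CPM (the count scaled to the size of its library), as did 13984 genes in all.

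A549 is an established line of human lung adenocarcinoma cells. Its RNA was sequenced in 3 libraries: 1 of control cells (Control-sh) and 1 for each of 2 shRNAs against the RNA helicase DDX24 (DDX24-sh1 and DDX24-sh2). All 3 were stable lines grown in F12K medium with serum, made with a lentiviral pLKO.1 vector and kept in puromycin, so the control carries the vector and the drug as well. The methods name the empty vector as the control and a figure legend names a control shRNA, and which of them this library holds is not given in the sources used here. No clone was named, no library had a replicate, and no stimulus of the pathway is named in the labels.

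Counts summed to between 17218884 and 18337471 per library. DDX24 itself had 2010 counts in Control-sh, 637 with DDX24-sh1 and 765 with DDX24-sh2, which left 29.6% and 36.0% of the control after scaling. Mitochondrial genes took 4.36% of the control counts, 5.13% with DDX24-sh1 and 7.04% with DDX24-sh2, and their part in the results was not tested. All 8 markers of the epithelial carcinoma line had a mean of at least 1 CPM, with a summed level of 14516 to 14669 CPM per library. Single markers differed more than the sum, with CDH1 at 31.5 CPM in Control-sh, 19.6 with DDX24-sh1 and 14.5 with DDX24-sh2, and KRT19 at 58.6, 123 and 151 CPM. Of the 4 haematopoietic markers, which would mark immune cells rich in NF-kB components, PTPRC and CD3E were at 0 counts in every library and the summed level was at most 0.277 CPM. The 3 endothelial markers summed to between 0.499 and 0.765 CPM, and the 3 fibroblast markers to between 8.42 and 10.4 CPM.

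The deposited counts and FPKM values name the 2 shRNA libraries differently. The FPKM labelled DDX24-sh1 followed the counts labelled DDX24-sh2, and the FPKM labelled DDX24-sh2 the counts labelled DDX24-sh1, to within 1% for 100% of 11641 genes with at least 50 counts in every library. With the labels as given, 5.33% and 5.32% of those genes lay within that tolerance, whereas the control FPKM followed the control counts for 100%. The data do not tell which labels hold, so DDX24-sh1 and DDX24-sh2 here mean the libraries so labelled in the counts, and every statement that sets 1 shRNA against the other rests on that label.

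With 1 library per condition there is no test of the difference between conditions. Each difference is given as the log2 ratio of scaled counts, followed in brackets by an exact 95% binomial interval (Clopper-Pearson) that covers counting error only. A member was counted as higher or lower either when this interval lay wholly beyond 0 or when the ratio reached 1.5-fold (0.585 on the log2 scale), and the shares of all 13984 genes that met each rule are given with the counts over all 40 members. Levels are given per length, as scaled CPM per kilobase of the merged annotated exons of a gene. The transcripts present may be shorter, so the order of genes by level depends on this length. In bulk RNA a shift in the make-up of the cells and a shift in RNA per cell cannot be told apart.

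Over all 40 members the most frequent pattern was a lower count in the shRNA libraries. In DDX24-sh1, 19 members had an interval below 0 (47.5%, against 29.5% of all genes) and 9 had one above 0 (22.5%, against 23.6%). At 1.5-fold, 7 members were lower with DDX24-sh1 (17.5%, against 8.25% of all genes) and 0 were higher (against 7.59%). In DDX24-sh2, 20 members had an interval below 0 (50%, against 30.8%) and 7 had one above 0 (17.5%, against 23.6%). At 1.5-fold, 5 members were lower with DDX24-sh2 (12.5%, against 9.51%) and 1 was higher (2.5%, against 8.6%). The members at or past 1.5-fold lower were RELB, REL, NFKB2, NFKBIZ, TRAF1, BIRC3 and TNFAIP3 with DDX24-sh1, and RELB, NFKB1, NFKBIB, NFKBIZ and TNFAIP3 with DDX24-sh2. The median log2 ratio of the members was -0.20 with DDX24-sh1 and -0.15 with DDX24-sh2, against -0.02 and -0.03 for all genes. The 2 comparisons share the control library, so the second is not an independent repeat of the first. Members also had more counts than most genes (a median of 900 in Control-sh, against 432.5), which narrows their intervals. The members were chosen with earlier results of these data known, so their shares beside those of all genes are not independent evidence.

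**Figure D1:**
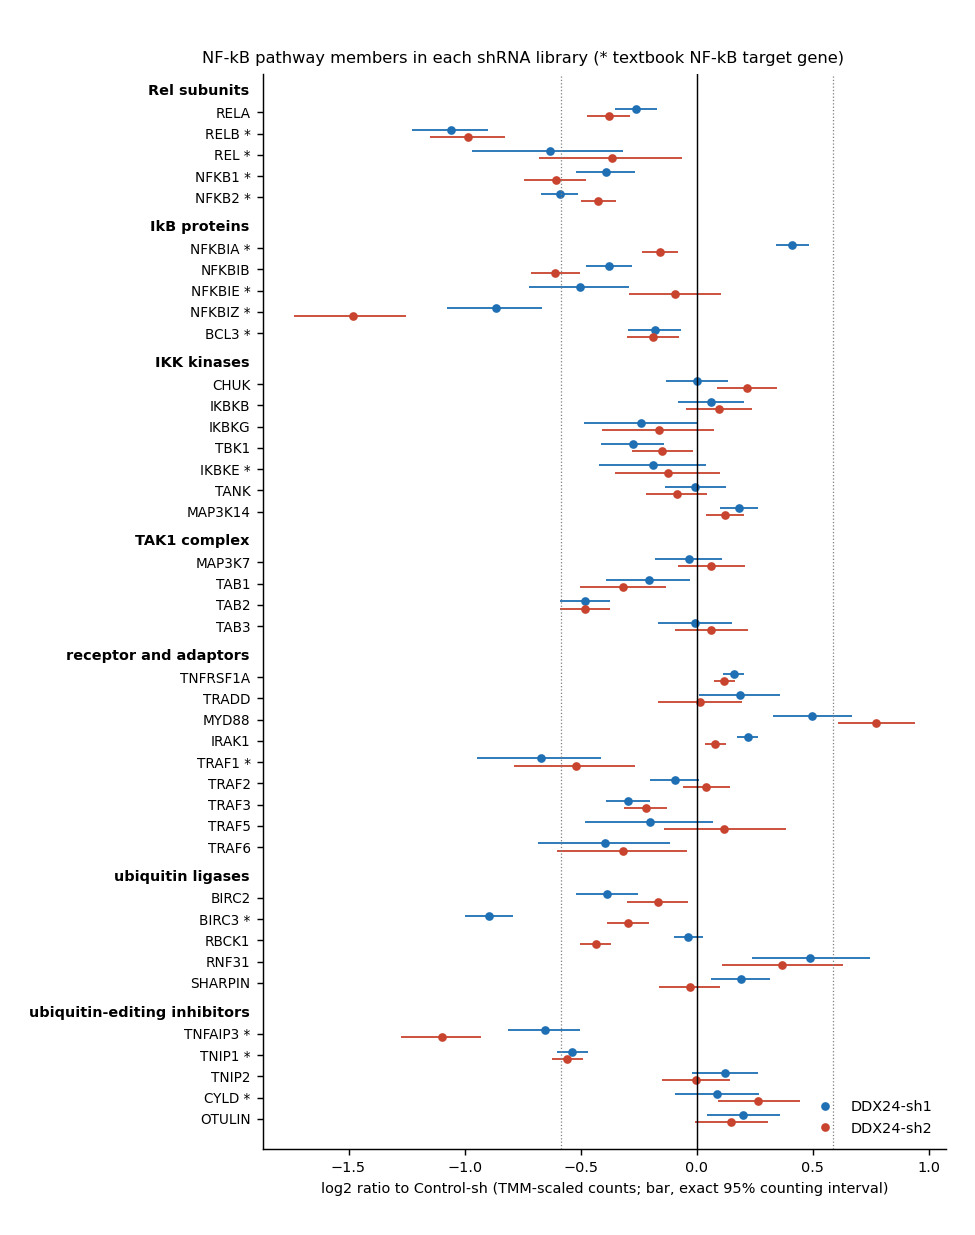
Log2 ratio of each of the 40 members to Control-sh (x axis) by role (y axis) with DDX24-sh1 (blue) and DDX24-sh2 (red), with exact 95% counting intervals as bars and dotted lines at 1.5-fold. All 5 Rel subunits lie left of 0 in each library, the IKK kinases lie within 0.28 of 0, and NFKBIA is the member whose points sit on opposite sides of 0 with neither interval reaching it.

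The members were first read by whether they are themselves textbook targets of NF-kB. The 14 targets are NFKBIA, NFKBIE, NFKBIZ, BCL3, NFKB1, NFKB2, REL, RELB, TNFAIP3, TNIP1, TRAF1, BIRC3, IKBKE and CYLD. That list was written with earlier results of these data known, so its direction is not independent evidence. In each shRNA library, 11 of the 14 target members had an interval below 0 (78.6%, against 29.5% of all genes with DDX24-sh1 and 30.8% with DDX24-sh2), with a median log2 ratio of -0.56 with DDX24-sh1 and -0.40 with DDX24-sh2. At 1.5-fold, 7 of the 14 were lower with DDX24-sh1 (against 8.25% of all genes) and 4 with DDX24-sh2 (against 9.51%). Among the other 26 members, 8 had an interval below 0 with DDX24-sh1 (30.8%) and 9 with DDX24-sh2 (34.6%), near the shares of all genes, and the medians were -0.02 and 0.0042.

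The summed scaled level of the target members was 1097 CPM in Control-sh, 849 with DDX24-sh1 and 820 with DDX24-sh2. That of the other 26 members was 2407, 2444 and 2329 CPM. The target members not below 0 by their interval were NFKBIA, CYLD and IKBKE with DDX24-sh1 and NFKBIE, CYLD and IKBKE with DDX24-sh2. IKBKE, an inducible IKK-related kinase, had 327, 307 and 317 counts.

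**Figure D2:**
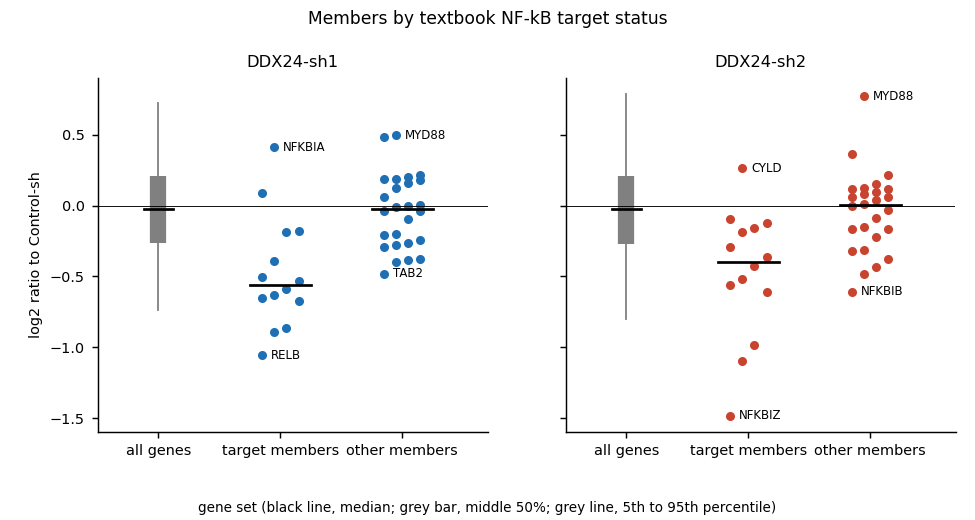
Log2 ratio to Control-sh (y axis) of the 14 target members and the other 26 members (points) beside all 13984 genes (grey, middle 50% and 5th to 95th percentile), with DDX24-sh1 (left) and DDX24-sh2 (right), with medians as black lines. The medians of target members sit at -0.56 and -0.40, and those of the other members at -0.02 and 0.0042, next to the medians of all genes at -0.02 and -0.03.

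NF-kB binds its targets at kappaB sites, so the promoters of the members were searched for such sites after the values were known. RefSeq promoter windows on GRCh38.p14, from 250 bases before to 50 bases after each start of transcription, were searched on both strands for the 10-base kappaB consensus, which is 3 guanines, a purine, 2 free bases, 2 pyrimidines and 2 cytosines. Windows were given for 35 of the 40 members, not for IKBKB, NFKBIE, RELB, SHARPIN and TRADD. The consensus was in 11.3% of the 35116 windows of all genes and in 13.3% of 27305 genes. It was in the windows of 10 of the 12 target members with an entry and of 5 of the 23 other members with one (21.7%). TRAF1 and IKBKE were the target members with an entry but no match. The members had 55 windows for 35 genes, more per gene than all genes had. By window, the consensus was in 13 of 21 for target members (61.9%) and 5 of 34 for the other members (14.7%). Many of the target genes are known as such through these sites, so their presence repeats part of what the list was made from. A match is a description of the sequence and shows no binding in these cells.

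The windows printed here are from members at least 1.5-fold lower in an shRNA library that hold a match before the start, and from NFKBIA, which differed in direction between libraries, each read on the strand of its gene, 5′ to 3′, with the bases of the consensus match on either strand in capitals.
NFKBIZ: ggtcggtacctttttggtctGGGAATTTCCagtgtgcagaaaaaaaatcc
TNFAIP3: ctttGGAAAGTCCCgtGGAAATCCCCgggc
BIRC3 first: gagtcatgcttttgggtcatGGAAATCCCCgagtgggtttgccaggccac
BIRC3 second: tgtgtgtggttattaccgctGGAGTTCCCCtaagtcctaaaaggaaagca
NFKB1: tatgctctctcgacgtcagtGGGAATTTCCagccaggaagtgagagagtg
NFKB2 first: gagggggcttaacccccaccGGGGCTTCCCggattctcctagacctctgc
NFKB2 second: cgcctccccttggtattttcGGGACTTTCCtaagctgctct
REL: ccgcGGGAAATTCCCctcc
NFKBIA: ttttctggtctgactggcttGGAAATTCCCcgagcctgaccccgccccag
NFKBIB: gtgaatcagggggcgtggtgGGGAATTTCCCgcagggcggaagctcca

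The NFKBIZ window is at chr3:101827747-101827796 and that of TNFAIP3, which holds 2 matches separated by a short spacer, is at chr6:137867188-137867217. The BIRC3 windows are at chr11:102317265-102317314 and chr11:102317329-102317378, so its promoter also holds 2 matches, the first of which begins 199 bases before the start. The NFKB1 window is at chr4:102501290-102501339 and those of NFKB2 are at chr10:102395509-102395558 and chr10:102395664-102395704, and that of REL, whose matches on the strands overlap, is at chr2:60881523-60881541. Not printed are a further NFKB2 window with 3 matches at chr10:102394451-102394529, which lies in annotated exons, and a further NFKBIZ window with 1 match at chr3:101849264-101849304. All starts here are those of RefSeq, and GENCODE transcripts of TNFAIP3, NFKB1, NFKB2, REL and NFKBIB begin within or before the windows shown. The NFKBIA window is at chr14:35404801-35404850 on the minus strand, with its match 81 bases before the start, and NFKBIB, which is not on the target list, has overlapping matches on the strands at chr19:38899921-38899968. The printing rule took members for their lower counts, so that most members shown were lower was set in advance. NFKBIA, also printed, was higher with DDX24-sh1. Members with a match that were not printed did not share a direction. BCL3, TAB2, TNIP1 and TRAF3 had intervals below 0 in each comparison. CYLD (0.09 and 0.27), IRAK1 (0.22 and 0.08) and TANK (-0.01 and -0.09) had no interval below 0.

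The Rel subunits, which form the DNA-binding dimers, had lower counts in the shRNA libraries. All 5 had an interval below 0 with DDX24-sh1 (against 29.5% of all genes) and all 5 with DDX24-sh2 (against 30.8%), and their summed level was 94.4 in Control-sh, 64.4 with DDX24-sh1 and 65.7 with DDX24-sh2, or 68.2% and 69.6% of the control.

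RELB, the Rel subunit that pairs with the processed NFKB2 protein in the non-canonical pathway, had the largest difference of the family. It had 911 counts in Control-sh, 468 with DDX24-sh1 and 486 with DDX24-sh2, for log2 ratios of -1.06 [-1.22, -0.90] and -0.98 [-1.15, -0.83]. The shRNA libraries were close to each other and each was near 50% of the control (48.0% and 50.5%). RELB lies at chr19:45001430-45038198 (GRCh38, plus strand).

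NFKB2, the precursor of the non-canonical partner, was the most abundant of the family, with 3208 counts in Control-sh, 2282 with DDX24-sh1 and 2527 with DDX24-sh2. Its ratios were -0.59 [-0.67, -0.51] and -0.42 [-0.50, -0.35], and its level went from 41.9 in the control to 27.8 and 31.2. The DDX24-sh1 value is just past 1.5-fold and falls short of it with scaling by library totals or with DESeq2 size factors (-0.58 in each).

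NFKB1, the precursor of the canonical partner of RELA, had 1124 counts in Control-sh, 917 with DDX24-sh1 and 779 with DDX24-sh2. Its ratios were -0.39 [-0.52, -0.27] and -0.61 [-0.74, -0.48], and the second also falls just short of 1.5-fold with scaling by totals (-0.58). NFKB1 and RELA had their lower ratio with DDX24-sh2, and RELB, REL and NFKB2 with DDX24-sh1.

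RELA, the main transactivating subunit of canonical dimers, had 2189 counts in Control-sh, 1956 with DDX24-sh1 and 1779 with DDX24-sh2. The ratios, -0.26 [-0.35, -0.17] and -0.38 [-0.47, -0.29], were smaller than those of RELB. REL, the subunit best known from lymphocytes, had the lowest level of all 40 members in each library (0.881, 0.565 and 0.681). Its 198, 136 and 162 counts gave ratios of -0.63 [-0.97, -0.32] and -0.37 [-0.68, -0.06], with wide intervals. The DDX24-sh1 ratio fell short of 1.5-fold with FPKM under exchanged labels (-0.55). REL shares 5702 exon bases (43.3% of its exons) with AC010733.2 on the same strand, which had 0 counts in every library. The part of this overlap in the REL level was not tested.

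The make-up of the family also differed between libraries. RELB was 18.6% of the summed Rel level in Control-sh, 13.1% with DDX24-sh1 and 13.5% with DDX24-sh2. RELA was 24.9%, 30.4% and 27.5%, and NFKB2 was 44.4%, 43.2% and 47.5%. In each shRNA library the share of RELB was lower and that of RELA higher than in the control, whereas that of NFKB2 was lower in 1 and higher in the other.

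The IkB genes shared a direction with DDX24-sh2, where all 5 ratios were below 0, but not with DDX24-sh1, where NFKBIA was above 0. NFKBIA, NFKBIB and NFKBIE are the classical inhibitors that hold dimers in the cytoplasm, whereas NFKBIZ and BCL3 act in the nucleus as co-regulators. In DDX24-sh1, 4 of the 5 had an interval below 0 (against 29.5% of all genes) and NFKBIA had one above 0. In DDX24-sh2, 4 of the 5 had an interval below 0 (against 30.8%) and that of NFKBIE included 0.

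NFKBIA, the classical feedback inhibitor IkB-alpha, was the most abundant IkB gene. It had 2741 counts in Control-sh, 3903 with DDX24-sh1 and 2594 with DDX24-sh2, so the first shRNA library stood above the control and the second slightly below it. Its promoter holds the consensus as do those of NFKBIZ and TNFAIP3, and the part of these matches in the counts was not tested. The ratios were 0.41 [0.34, 0.48] and -0.16 [-0.24, -0.08], and between the shRNA libraries the ratio of DDX24-sh2 to DDX24-sh1 was -0.57 [-0.64, -0.50]. NFKBIA lies at chr14:35401511-35404749 (GRCh38, minus strand).

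NFKBIZ, an inducible nuclear IkB that many cells make only after a stimulus, had the lowest ratio of all members with DDX24-sh2. It had 529 counts in Control-sh, 310 with DDX24-sh1 and 199 with DDX24-sh2, for ratios of -0.87 [-1.08, -0.67] and -1.48 [-1.73, -1.25]. The 3 libraries formed a clear order, with DDX24-sh2 below DDX24-sh1 by 0.62 on the log2 scale (-0.62 [-0.88, -0.36]). NFKBIZ lies at chr3:101827991-101861022 (GRCh38, plus strand).

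NFKBIB, the IkB-beta gene, had 1785 counts in Control-sh, 1472 with DDX24-sh1 and 1237 with DDX24-sh2. Its ratios were -0.38 [-0.48, -0.28] and -0.61 [-0.72, -0.50], the second within 0.03 of the 1.5-fold line and short of it with scaling by totals (-0.58). NFKBIE had ratios of -0.50 and -0.09, and BCL3 of -0.18 and -0.19. NFKBIZ had the lowest level of the 5 in every library.

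Set against each other, the families gave different ratios of summed level in the 3 libraries. The summed IkB level was 152 in Control-sh, 155 with DDX24-sh1 and 122 with DDX24-sh2. The summed IkB level was 1.61 times the summed Rel level in Control-sh, 2.41 times with DDX24-sh1 and 1.86 times with DDX24-sh2. The ratio of NFKBIA to RELA alone was 2.88, 4.59 and 3.36. The IkB sum includes the nuclear co-regulators NFKBIZ and BCL3, and the Rel sum includes the precursors NFKB1 and NFKB2. The summed ratio is thus not one of cytoplasmic inhibitors to dimers. These are ratios of transcripts, and the amounts of protein were not measured here.

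The IKK kinases and their regulators, which pass the signal to the IkB proteins, differed little. Their log2 ratios ran from -0.28 to 0.18 with DDX24-sh1 and from -0.16 to 0.21 with DDX24-sh2, and none of the 7 reached 1.5-fold. TBK1 was the member with an interval below 0 in each comparison (-0.28 and -0.15). MAP3K14, the NF-kB-inducing kinase of the non-canonical pathway, had the highest level of the 7 and an interval above 0 in each comparison (0.18 and 0.12), and CHUK had one above 0 with DDX24-sh2 (0.21).

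IKBKG, the regulatory subunit NEMO of the IKK complex, had 296 counts in Control-sh, 268 with DDX24-sh1 and 279 with DDX24-sh2. Its ratios were -0.24 [-0.49, 0.00012] and -0.16 [-0.41, 0.07], so each counting interval included 0, the first only just. Without replicates, a difference between the conditions was not tested. IKBKG lies at chrX:154541199-154565046 (GRCh38, plus strand). The near-identical copy IKBKGP1 had 5, 12 and 14 counts, and counts per gene do not separate transcripts, so isoforms of IKBKG were not measured. IKBKB, the catalytic partner, had 774, 866 and 875 counts, more than IKBKG, over 11241 bases of exons against 3529. Per length, IKBKB had the lowest level of the 7 in Control-sh (4.03) and with DDX24-sh2 (4.31), and IKBKG with DDX24-sh1 (4.15). The ratios of IKBKB were 0.06 and 0.10. TANK, a scaffold that links TRAF proteins to TBK1, had 939, 1002 and 935 counts and ratios of -0.01 [-0.14, 0.12] and -0.09 [-0.22, 0.05].

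In the TAK1 complex, which activates IKK, the kinase gene MAP3K7 had 765 counts in Control-sh, 800 with DDX24-sh1 and 845 with DDX24-sh2, with both intervals across 0 (-0.04 and 0.06). TAB2, an adaptor that binds ubiquitin chains, stood apart within the complex with 1629, 1251 and 1233 counts. Its ratios were -0.48 [-0.59, -0.37] and -0.48 [-0.59, -0.37], and it had the highest level of the complex in every library. TAB1 had an interval below 0 in each comparison (-0.21 and -0.32), and TAB3 had ratios of -0.01 and 0.06. Per length TAB3 had the lowest level of the 4, over 12711 bases of exons against 4456 for TAB1. By counts it stood above TAB1 in every library.

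Among the receptor and adaptors, MYD88 was the member that stood at least 1.5-fold above the control, with DDX24-sh2. MYD88, an adaptor of Toll-like receptors and of some interleukin receptors, had 473 counts in Control-sh, 715 with DDX24-sh1 and 855 with DDX24-sh2. The ratios were 0.49 [0.33, 0.67] and 0.77 [0.61, 0.94], and the shRNA libraries differed from each other by 0.28 [0.13, 0.42]. MYD88 lies at chr3:38138478-38143022 (GRCh38, plus strand).

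IRAK1, the kinase recruited by MYD88, and TNFRSF1A, the main receptor for TNF, had the highest levels of all 40 members. IRAK1 had 7540, 9403 and 8428 counts (0.22 and 0.08) and TNFRSF1A had 7528, 9003 and 8640 (0.16 and 0.12), with every interval above 0. These ratios are small, and their narrow intervals reflect the high counts.

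TRAF1, an inducible adaptor of TNF receptors, had 291 counts in Control-sh, 195 with DDX24-sh1 and 214 with DDX24-sh2. Its ratios were -0.67 [-0.95, -0.41] and -0.52 [-0.79, -0.26]. The other TRAF genes, which code for adaptors with ligase domains, were closer to the control: TRAF3 and TRAF6 had intervals below 0 in each comparison (TRAF3 -0.30 and -0.22, TRAF6 -0.40 and -0.32), and TRAF2 and TRAF5 had intervals across 0. TRAF5 had the lowest level of the 9 genes in each library (1.48, 1.28 and 1.61). TRADD, the first adaptor on the TNF receptor, had 491, 598 and 524 counts, with an interval above 0 with DDX24-sh1 (0.18).

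The ubiquitin ligases were mixed. By their interval, BIRC2 (0.22) and BIRC3 were higher with DDX24-sh2 than with DDX24-sh1 (2 of 5, against 21% of all genes). RBCK1 and SHARPIN (-0.22) were lower with DDX24-sh2 (2 of 5, against 23.8% of all genes). BIRC3, an inducible inhibitor-of-apoptosis ligase at the TNF receptor, had 2096 counts in Control-sh, 1207 with DDX24-sh1 and 1806 with DDX24-sh2. Its ratios were -0.89 [-0.999, -0.79] and -0.30 [-0.39, -0.20], and DDX24-sh2 was above DDX24-sh1 by 0.60 [0.49, 0.71]. Both shRNA libraries were below the control, the first well below the second. BIRC3 has a pair of printed kappaB windows, whose part in its counts was not tested. BIRC3 lies at chr11:102317450-102339403 (GRCh38, plus strand), next to its constitutive relative BIRC2, whose ratios were -0.39 and -0.17.

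The LUBAC complex builds linear ubiquitin chains, and its 3 genes did not share a direction. RBCK1, with the highest level of the 5 ligase genes, had 4052 counts in Control-sh, 4235 with DDX24-sh1 and 3168 with DDX24-sh2, for ratios of -0.04 [-0.10, 0.03] and -0.44 [-0.50, -0.37]. RNF31, the catalytic subunit and the lowest of the 5, had 214, 322 and 292 counts and ratios of 0.49 [0.24, 0.75] and 0.36 [0.11, 0.63]. SHARPIN had 924, 1129 and 957 counts, with an interval above 0 with DDX24-sh1 (0.19). RNF31 shares 1732 exon bases (34.8% of its exons) with AL136295.5 on the same strand, which had 15, 11 and 5 counts, and 216 with PSME2 on the opposite strand, which had 1010, 1166 and 1328 counts, and the part of these overlaps in the RNF31 values was not tested.

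Of the ubiquitin-editing inhibitors, TNFAIP3 and TNIP1 were lower and the other 3 were not. TNFAIP3, the A20 enzyme that shuts the pathway down after activation, had 844 counts in Control-sh, 574 with DDX24-sh1 and 416 with DDX24-sh2. Its ratios were -0.65 [-0.81, -0.50] and -1.10 [-1.27, -0.93], with DDX24-sh2 below DDX24-sh1 (-0.44 [-0.63, -0.26]). The order of the 3 libraries was the same as for NFKBIZ. The printed window of TNFAIP3 holds a pair of kappaB matches, whose part in its counts was not tested. TNFAIP3 lies at chr6:137867188-137883312 (GRCh38, plus strand).

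TNIP1, a partner of A20, had the highest level of the group, with 4226 counts in Control-sh, 3123 with DDX24-sh1 and 3036 with DDX24-sh2. Its ratios were -0.54 [-0.60, -0.47] and -0.56 [-0.63, -0.49], short of 1.5-fold in each. CYLD, a deubiquitinase and the lowest of the group, had 474, 539 and 603 counts, with ratios of 0.09 [-0.10, 0.27] and 0.27 [0.09, 0.44]. TNIP2 had ratios of 0.12 and -0.0046, and OTULIN, which removes linear chains, had ratios of 0.20 and 0.15.

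A direct comparison of the shRNA libraries, which leaves the control library out of the ratio, described how far the members differed between them. Each shRNA has 1 library, so the shRNA, the culture and the extent of DDX24 knockdown cannot be told apart. Of the 40 members, 9 had a higher count with DDX24-sh2 than with DDX24-sh1 by their interval (22.5%, against 21% of all genes) and 9 had a lower one (22.5%, against 23.8%). At 1.5-fold, 1 member was higher, BIRC3 (2.5%, against 5.33%), and 1 was lower, NFKBIZ (2.5%, against 4.84%). The median log2 ratio of the members was 0.02, against -0.01 for all genes, and by each rule the share of members was close to or below that of all genes. NFKBIA (-0.57), TNFAIP3 (-0.44), NFKBIE (0.41) and RBCK1 (-0.40) were the next in size.

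Other genes of the pathway were taken from a list of 64 that holds receptors, further adaptors and kinases, ubiquitin machinery and other inhibitors, of which 56 had a mean of at least 1 CPM. In DDX24-sh1, 17 of the 56 had an interval below 0 (30.4%, against 29.5% of all genes) and 12 one above 0 (21.4%, against 23.6%). In DDX24-sh2, 23 had an interval below 0 (41.1%, above the 30.8% of all genes) and 13 one above 0 (23.2%, against 23.6%). At 1.5-fold, 3 of the 56 were lower with DDX24-sh1 (5.36%, against 8.25% of all genes) and 2 higher (3.57%, against 7.59%). With DDX24-sh2, 6 were lower (10.7%, against 9.51%) and 2 higher (3.57%, against 8.6%). Their median log2 ratios, -0.05 and -0.06, were closer to those of all genes than the medians of the 40 members were.

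The lowest of these by the smaller of their ratios in size were MAP3K8, MAP3K2 and TICAM1. MAP3K8, the kinase Tpl2 that is bound by the NFKB1 precursor, had 711 counts in Control-sh, 491 with DDX24-sh1 and 337 with DDX24-sh2 (-0.63 [-0.80, -0.47] and -1.15 [-1.35, -0.97]). MAP3K2 had 1805, 1197 and 1246 counts (-0.69 and -0.61), and TICAM1, the TRIF adaptor of Toll-like receptors, had 377, 274 and 235 (-0.56 and -0.76). Among the highest were NFKBID, a nuclear IkB gene, with 69, 109 and 123 counts (0.55 and 0.74), and TRAFD1, an inhibitor of Toll-like receptor signalling, with 1163, 2123 and 1652 (0.77 and 0.43). NFKBID and NFKBIZ, both nuclear IkB genes, thus lay on opposite sides of the control in each shRNA library.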

How the data were processed

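The authors deposited raw counts per gene (reads or fragments, not normalized) and FPKM for the same libraries. The submitters' processing notes name Bowtie2 2.0.6, TopHat2 2.0.9, Cufflinks 2.1.1 and Cuffdiff 2.1.1 without a role. The annotation, counter and strandedness are not given in the sources used here. All 58735 gene identifiers, starts and ends match GENCODE 29 (GRCh38). Samples were grouped by their titles.

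Counts were scaled with TMM factors (edgeR 4.0.16, R 4.3.3), and log2 CPM ratios used a prior count of 2. With 1 library per condition, no model was fitted and no p-value given. Intervals were computed in scipy 1.17.1 and tested on simulated data. No molecular identifiers are described, so reads are not independent molecules and intervals understate the error. The median interval of a member reached 0.14 to either side on the log2 scale. Exons of 18 members overlap those of another gene, on the opposite strand for 14.

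The 40 members, the target list, the other pathway genes and the marker lists were chosen with earlier results of these data known. Described in full were members at 1.5-fold or more in either shRNA library, RELA, IKBKG and TANK, and the highest and lowest level in each role, and for the other pathway genes the 3 highest and 3 lowest by the smaller ratio in size, given a mean of 5 CPM or more and ratios of 1 sign. Some items these rules cover are not reported here. Members outside this rule, the counts by interval and the motif search were added after values were seen. Alternatives were DESeq2 1.42.0 size factors, scaling by totals, a prior count of 0.5, FPKM as log2(FPKM + 0.1) with labels as given and exchanged, a filter at a mean of 10 CPM or none, and 2-fold. Promoter windows came from RefSeq (GRCh38.p14). Python 3.11.15 with matplotlib 3.10.9 drew the figures.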

Additional observations from a re-analysis of the deposited data

Results flagged for a closer look

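NFKBIA, the gene of IkB-alpha, lay on opposite sides of the control in the shRNA libraries, with a log2 ratio of 0.41 with DDX24-sh1 and -0.16 with DDX24-sh2 and counting intervals that did not reach 0 in either. The difference between the shRNAs was not tested over cultures, since each has 1 library.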

How the results depend on the processing

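With DESeq2 size factors, scaling by totals, a prior count of 0.5 and FPKM with the shRNA labels exchanged, the ratios of all 40 members in each comparison stayed within their counting intervals. The median ratio of the members ran from -0.20 to -0.14 with DDX24-sh1 and from -0.18 to -0.13 with DDX24-sh2 over the alternatives. With the FPKM labels as given, 18 members moved past their interval with DDX24-sh1 and 19 with DDX24-sh2, by construction, since the 2 libraries trade places. Between the shRNAs NFKBIZ then stood at 0.60 and BIRC3 at -0.59, the reverse of the counts. The number of members 1.5-fold higher became 1 with DDX24-sh1 (from 0) and 0 with DDX24-sh2 (from 1) under those labels. Scaling by totals left 3 members 1.5-fold lower with DDX24-sh2 in place of 5, since NFKB1 and NFKBIB lie just past that line. With DDX24-sh1 the 7 members 1.5-fold lower became 6 with DESeq2 size factors, scaling by totals or the filter at 10 CPM. They became 5 with FPKM under either labelling. At 2-fold, 1 member was lower with DDX24-sh1, 2 were lower with DDX24-sh2 and 0 were higher with DDX24-sh2. The share of all genes past 2-fold is not given here, so these counts cannot be read against it. No paired analysis was possible because each condition has 1 library. The limits are the single library per condition, the unsettled shRNA labels, overlapping exons where strand is not known, and low counts: REL with 136 to 198 counts and TRAF6 with 191 to 235 carry wide intervals. No replicate could be left out.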
